A study of Mus musculus with 8 samples.

Results

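Fgf18, a fibroblast growth factor (FGF) ligand gene, was followed in mouse J1 embryonic stem cells together with 9 genes of the FGF and ERK pathway: the ligand Fgf4, the receptors Fgfr1 and Fgfr2, the feedback inhibitors Spry2, Spry4 and Dusp6, and the transcription factors Etv4, Etv5 and Egr1. All probe sets annotated to 1 of these symbols alone were taken, which gave 18 of the 22690 probe sets on the array and 10 of the 12393 genes tested. Fgf18 was selected on its hairpin values, a fall against the shControl arrays that was already known, and the others were chosen by their place in the pathway when the hairpin results were known too. The hairpin comparisons are therefore given as a description: where a gene's place in the fit over all genes is given for them, nothing is read from it. Day 4 of differentiation is tested for the members other than Fgf18.

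The arrays fell into 4 groups of 2: Fbxl19 shRNA1, Fbxl19 shRNA2, cells on day 4 of differentiation, and a control hairpin (shControl). The product of Fbxl19 combines an F-box with a CXXC domain, which can bind CpG sites that carry no methylation, and the series asked how gene expression changes when it is knocked down. The labels give the same culture medium, with serum and leukemia inhibitory factor (LIF), for all 4 groups. They do not give how differentiation was carried out, whether day 4 cells carried a hairpin, whether hairpin cells were a clone or a pool, or whether the replicates were independent cultures; the p-values therefore rest on a spread that may be technical alone. A free-text label of 3 of the 4 knockdown arrays names other Fbxl genes, whereas titles and source names give Fbxl19, and these were followed.

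FGF ligands bind receptor tyrosine kinases, which activate RAS, RAF, MEK and ERK in turn. ERK activity raises the transcription of ETS factors such as Etv4 and Etv5, of immediate-early genes such as Egr1, and of inhibitors such as the Sprouty genes and Dusp6, which damp the pathway again. In mouse embryonic stem cells FGF4 is the main ligand that the cells make for themselves, and FGF-ERK signalling is known to prepare them for leaving the naive state.

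The array had 0 probe sets annotated to Fbxl19, so the knockdown itself was not measured here. Replicate 2 of shControl stood apart in its distribution, with a lower quartile of 3.79, a median of 5.81 and an upper quartile of 8.18 on the log2 scale, all of which fell outside the values of every other array. The difference between 3′ and 5′ actin control probe sets, a sign of RNA quality, was 0.70 to 0.76 on the knockdown arrays, 0.73 and 0.65 on day 4, and 0.60 and 0.54 in shControl; its part in the results was not tested. Markers of undifferentiated stem cells were measured on all 8 arrays: the mean level of 10 such genes was 10.73 to 10.95 with either hairpin, 9.29 and 8.54 on day 4, and 10.83 and 10.84 in shControl, and 7 of the 10 fell on day 4. Of 9 primitive endoderm markers 0 rose and 1 fell on day 4, with mean levels of 4.33 and 4.55 on day 4 and of 4.62 and 4.72 in shControl; of 8 fibroblast markers 0 were called by limma (2 at an unadjusted p under 0.05). Trophoblast markers averaged 5.73 and 5.48 on day 4, and 4.90 and 4.87 in shControl. Of these, 2 of 6 were called higher (Cdx2 and Eomes) and 1 lower (Tfap2c), while Gata3 had 5.95 and 3.61 on day 4 and was not called. Markers of epiblast and germ layers averaged 6.30 and 6.56 on day 4, and 5.67 and 5.45 in shControl. There 3 of 9 were called higher (Fgf5, Otx2 and Pou3f1) and 1 lower (Kdr), and Mixl1, Pax6, Sox1, Nes and Hand2 were not called. Over all genes 7.67% were called higher and 8.73% lower on day 4. The part of these cell types in the day 4 results was not tested.

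RefSeq start sites gave promoter windows, the 250 bases before the start (build GRCm38.p6), for 6 of the members. The window of Fgf18 is shown because Fgf18 had the largest fall of the members with the hairpins and the protein they target has a CpG-binding domain, and those of Dusp6 and Etv5 because these genes moved in opposite directions on day 4. Capitals mark each CG, a word that reads the same on both strands.
Fgf18, chr11:33147401-33147650, minus strand: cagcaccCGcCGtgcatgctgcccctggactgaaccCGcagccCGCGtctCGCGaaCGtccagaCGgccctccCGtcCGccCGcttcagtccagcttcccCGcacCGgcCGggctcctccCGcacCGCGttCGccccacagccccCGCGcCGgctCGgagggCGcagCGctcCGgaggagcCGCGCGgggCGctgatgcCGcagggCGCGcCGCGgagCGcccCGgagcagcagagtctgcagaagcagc
Dusp6, chr10:99262981-99263230, plus strand: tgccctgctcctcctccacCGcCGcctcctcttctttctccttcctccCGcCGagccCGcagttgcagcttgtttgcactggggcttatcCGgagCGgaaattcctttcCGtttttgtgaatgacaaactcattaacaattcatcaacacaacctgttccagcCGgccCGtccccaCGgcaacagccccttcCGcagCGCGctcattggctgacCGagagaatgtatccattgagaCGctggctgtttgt
Etv5, the upstream of 2 start sites, chr16:22439571-22439820, minus strand: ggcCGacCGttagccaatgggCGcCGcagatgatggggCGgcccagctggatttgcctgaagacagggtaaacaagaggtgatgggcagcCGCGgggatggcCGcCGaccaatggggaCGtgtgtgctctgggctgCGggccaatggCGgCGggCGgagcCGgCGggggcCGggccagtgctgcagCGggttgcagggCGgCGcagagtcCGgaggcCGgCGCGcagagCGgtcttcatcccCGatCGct
The Fgf18 window held 37 CG words, and 2.2% of 32851 mouse windows of this length held as many or more (median 6). The Etv5 window shown held 27 (8.56% of windows held as many), that of its second start site 18 (21.7%), and the Dusp6 window 16 (25.4%). Of the windows not shown, that of Spry2 held 23 (13.3%), that of Fgf4 21 (16.3%) and that of Fgfr2 2 (81.2%). The ETS word CCGGAAG or its reverse complement CTTCCGG was in 0 of the 7 member windows and in 6.91% of all windows. Spry4 and Egr1 are not among the member windows, and the share over all windows was taken without a chromosome rule. These are counts of letters, and the data hold no measure of binding.

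Fgf18, a secreted ligand known for its part in bone, cartilage and lung development, was lower in all 3 other groups than in shControl. Its log2 level was 4.73 and 4.29 with shRNA1, 5.71 and 5.16 with shRNA2, 5.60 and 4.92 on day 4, and 6.70 and 6.82 in shControl. The shControl arrays lay above all others, those of shRNA1 below all others, and the arrays of shRNA2 and day 4 overlapped. Against shControl the log2 change was -2.25 ± 0.26 with shRNA1 (4.76-fold lower), -1.33 ± 0.26 with shRNA2 (2.51-fold lower) and -1.50 ± 0.26 on day 4 (2.83-fold lower; moderated SE, 2 against 2 arrays). These comparisons share the shControl arrays, on which the choice of Fgf18 also rested, so the day 4 value of Fgf18 is given with no p. Set against all 6 undifferentiated arrays, the hairpin arrays included, the day 4 change was -0.31 ± 0.22, and the 2 sides overlapped.

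**Figure D1:**
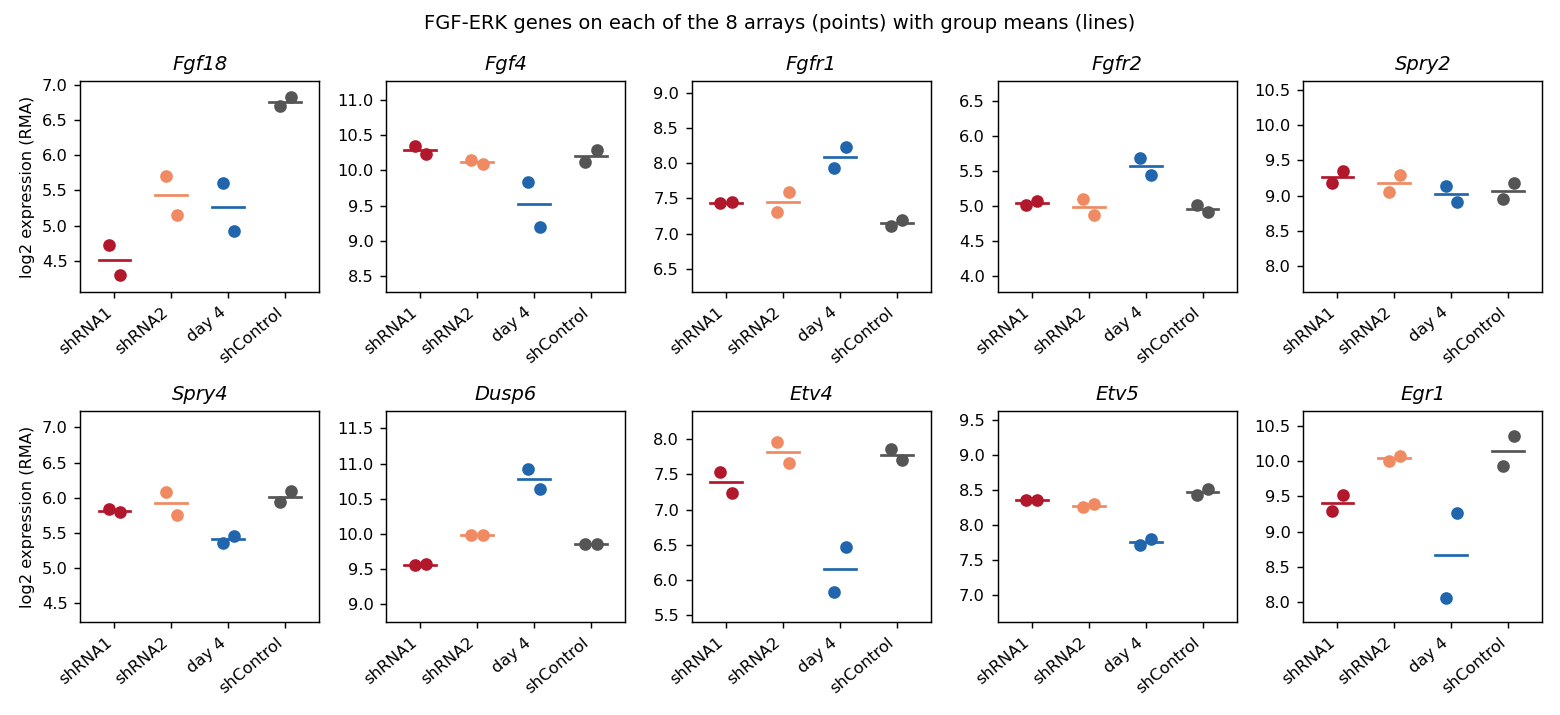
Log2 expression of the 10 genes on each array; points are arrays, short lines are group means, and each panel has its own axis. Fgf18 lies highest on both shControl arrays, and Dusp6, Fgfr1 and Fgfr2 lie highest on the day 4 arrays. Fgf4, Spry4, Etv4, Etv5 and Egr1 lie lowest on the day 4 arrays.

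On day 4, of the 9 members other than Fgf18, 3 rose (Fgfr1, Fgfr2 and Dusp6) and 5 fell (Fgf4, Spry4, Etv4, Etv5 and Egr1), while Spry2 did not pass the test. A gene was called at a limma Benjamini-Hochberg adjusted p under 0.05 over all 12393 genes; 16.4% of all genes passed on day 4, 7.67% higher and 8.73% lower. The median change was -0.61 over these 9 members and 0.00 over all genes. The arrays of day 4 and shControl did not overlap for 8 of the 9 members, and for 50.4% of all genes. In bulk RNA, fewer cells that express a gene and less of its RNA per cell cannot be told apart. Without shControl replicate 2 the count of members called was 4 (Fgfr1, Dusp6, Etv4 and Etv5), while the share of all genes called was 8.89%.

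Of the ligands, Fgf4 had 9.84 and 9.20 on day 4, and 10.12 and 10.29 in shControl. Both day 4 arrays lay below both shControl arrays, by -0.68 ± 0.20 (limma adjusted p = 0.0485). This value lay at the threshold, and 12 of the 18 alternative settings did not call it; without day 4 replicate 2 it was -0.36. The other probe sets of Fgf4 had -0.74, -0.49 and -0.83 on day 4.

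Both receptors rose. Fgfr1, the main FGF receptor of stem cells and epiblast, had 7.93 and 8.24 on day 4, and 7.11 and 7.20 in shControl, a change of 0.93 ± 0.16 (1.91-fold; limma adjusted p = 0.00403). Fgfr2, a receptor best known in this setting from primitive endoderm, had 5.69 and 5.44 on day 4, and 5.02 and 4.91 in shControl, a change of 0.60 ± 0.15 (limma adjusted p = 0.0243). The groups did not overlap for either gene. The second probe set of each receptor was dim, with day 4 means of 3.63 for Fgfr1 and 3.80 for Fgfr2, and gave changes of 0.22 ± 0.21 and 0.04 ± 0.13. Averaged over its probe sets Fgfr1 had 0.58 and was still called. Averaged over both of its probe sets, Fgfr2 had 0.32 and was not called, and 10 of its 18 alternatives called it.

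The 3 feedback inhibitors went different ways. Dusp6, a phosphatase that removes the activating phosphates from ERK, had 10.93 and 10.64 on day 4, and 9.86 and 9.86 in shControl. It was higher on both day 4 arrays than on any other array, by 0.93 ± 0.14 against shControl (1.90-fold; limma adjusted p = 0.00203). Spry4, a Sprouty inhibitor of receptor tyrosine kinase signalling, had 5.36 and 5.45 on day 4, and 5.94 and 6.10 in shControl, a change of -0.61 ± 0.15 (limma adjusted p = 0.0251). Its other probe set had -0.16 ± 0.26, and the mean of both, -0.38, was not called. Spry2, another Sprouty gene, had 9.14 and 8.91 on day 4, and 8.96 and 9.19 in shControl, so that the groups overlapped. Its change was -0.05 ± 0.16 (limma adjusted p = 0.887), and all 4 groups overlapped with their neighbours in the order of means. Its other, dimmer probe set had 6.40 and 6.34 on day 4, and 6.51 and 6.99 in shControl, with no overlap and a change of -0.38 ± 0.17 that was not called (limma adjusted p = 0.203 over all probe sets).

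The 3 transcription factors were lower on day 4. Etv4, an ETS factor, had 5.83 and 6.47 on day 4, and 7.86 and 7.70 in shControl, and fell by 1.63 on the log2 scale, a change of -1.63 ± 0.22 (3.10-fold lower; limma adjusted p = 0.00123). Etv5, its close relative, had 7.72 and 7.81 on day 4, and 8.43 and 8.52 in shControl, a change of -0.71 ± 0.12 (limma adjusted p = 0.00479). The other Etv5 probe set had -1.03 ± 0.14. Egr1, an immediate-early zinc finger gene, had 8.06 and 9.26 on day 4, and 9.94 and 10.36 in shControl, a change of -1.49 ± 0.33 (limma adjusted p = 0.0154). Its day 4 arrays differed from each other by 1.20, the widest gap between partners of any member and group, yet both lay below all other arrays. Without day 4 replicate 1 the change of Egr1 was -0.89, and without day 4 replicate 2 it was -2.09. The calls of Fgfr1, Dusp6, Etv4 and Etv5 were kept under all 18 alternatives, including day 4 against all 6 undifferentiated arrays (0.74, 0.98, -1.51 and -0.60, where 22.8% of all genes were called). Those of Fgfr1 and Etv5 came closest to being lost, each with a highest limma adjusted p just under 0.05.

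**Figure D2:**
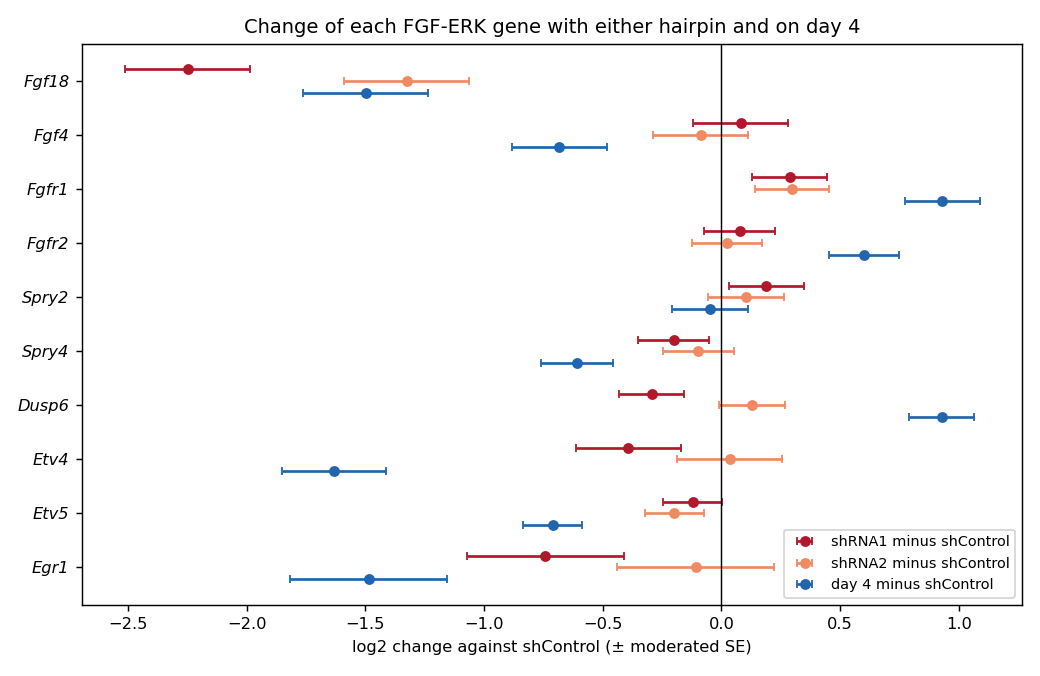
Log2 change of each gene against shControl with shRNA1, with shRNA2 and on day 4; bars are moderated SE of the limma model, and all 3 comparisons share the shControl arrays. Fgf18 is at -2.25, -1.33 and -1.50, whereas the other 9 genes lie between -0.74 and 0.30 with either hairpin and reach from -1.63 to 0.93 on day 4.

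With the hairpins, Fgf18 was the member with the largest change, and the other 9 lay between -0.74 and 0.30. Over all genes the share past the limma threshold was 0.242% with shRNA1, 0% with shRNA2 (5.1% at an unadjusted p under 0.05), 0.0726% for the mean of both hairpins and 0.105% between the hairpins. Of the members, Fgf18 was among these genes with shRNA1 and for the mean of both, which its selection on these values made likely and which is no support; the other 9 were among them in 0 of the 4 comparisons. With Fgf18 left out, arrays did not overlap those of shControl for 6 of 9 members with shRNA1 (43.4% of all genes). With shRNA2 it was 3 of 9 (33.1% of all genes). The median change of these 9 members was -0.12 with shRNA1 and 0.02 with shRNA2, and 0.00 and -0.01 over all genes.

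Fgfr1 had 7.44 and 7.44 with shRNA1, 7.31 and 7.59 with shRNA2, and 7.11 and 7.20 in shControl. The 4 knockdown arrays lay above both controls by 0.29 ± 0.14 on average, or 0.12 averaged over its probe sets, while its dim second probe set had -0.06 ± 0.18. Fgf4 changed by 0.08 ± 0.20 with shRNA1 and by -0.09 ± 0.20 with shRNA2, and Fgfr2 by 0.08 ± 0.15 and 0.02 ± 0.15, with arrays that overlapped those of shControl. Spry2 had 0.19 ± 0.16 and 0.10 ± 0.16, also with overlap.

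For Dusp6, Etv4 and Egr1 both shRNA1 arrays lay below both shControl arrays, and those of shRNA2 did not. Dusp6 had 9.56 and 9.57 with shRNA1, 9.99 and 9.99 with shRNA2, and 9.86 and 9.86 in shControl. The shRNA1 arrays thus lay below both controls (-0.29 ± 0.14) and the shRNA2 arrays above both (0.13 ± 0.14). Egr1 had 9.30 and 9.52 with shRNA1, 10.01 and 10.07 with shRNA2, and 9.94 and 10.36 in shControl, changes of -0.74 ± 0.33 and -0.11 ± 0.33. Etv4 had 7.54 and 7.24 with shRNA1, 7.97 and 7.67 with shRNA2, and 7.86 and 7.70 in shControl, changes of -0.39 ± 0.22 and 0.03 ± 0.22. Between the hairpins (shRNA2 minus shRNA1) the arrays did not overlap for these 3 genes and for Fgf18 (0.92 ± 0.26), all higher with shRNA2, nor for Fgf4 and Etv5, both lower with shRNA2; 43.6% of all genes did not overlap. Etv5 lay below shControl with both, by -0.12 ± 0.12 with shRNA1 and -0.20 ± 0.12 with shRNA2. Spry4 had -0.20 ± 0.15 with shRNA1, where the arrays did not overlap shControl, and -0.10 ± 0.15 with shRNA2, where they did.

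The order of the groups differed between members. Dusp6 was highest on day 4, followed by shRNA2, shControl and shRNA1, and Etv5 was highest in shControl, followed by shRNA1, shRNA2 and day 4, with no overlap between neighbours in either order. Egr1 and Etv4 were lowest on day 4 and next lowest with shRNA1, and shRNA2 and shControl overlapped. Fgf4 and Spry4 were lowest on day 4, while the 3 undifferentiated groups overlapped with their neighbours. Fgfr1 was lowest in shControl and highest on day 4, with the hairpins between them and overlapping each other, and Fgfr2 was higher on day 4 than in the 3 other groups, which overlapped.

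Genes of the pathway outside the members were taken from 5 lists, of which 77 of 94 genes were measured. On day 4, 13 of the 77 rose and 6 fell, and 58 did not pass, where 7.67% of all genes rose and 8.73% fell. The median change of these 77 genes was 0.13, against 0.00 for all genes. Without shControl replicate 2, a fit that leaves a single shControl array, fewer of the 77 passed, and fewer of all genes did too.

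Of 20 further genes of the FGF family (the ligand list), 3 rose, 1 fell and 16 did not pass. Fgf13, an intracellular FGF homologous factor that is not secreted, had 8.32 and 8.50 on day 4, and 4.52 and 5.38 in shControl, a change of 3.46 ± 0.25 (limma adjusted p = 3.96e-05), or 1.85 averaged over its probe sets. Fgf15 had 8.35 and 8.81 on day 4, and 6.66 and 6.98 in shControl, a change of 1.76 ± 0.19 (limma adjusted p = 0.000336). Fgf5, a marker of the primed epiblast, had 4.91 and 6.30 on day 4, and 3.60 and 3.21 in shControl (limma adjusted p = 0.00388). Its mean in shControl was under the lower quartile of all 8 arrays, where the size of a change is uncertain, and its call was lost without shControl replicate 2. Fgf17, a member of the Fgf8 subfamily, had 5.75 and 5.30 on day 4, and 6.76 and 7.08 in shControl, a change of -1.39 ± 0.19 (limma adjusted p = 0.00114). With Fgf18, which was not tested, and the intracellular Fgf13 left aside, Fgf4 and Fgf17 were thus called lower and Fgf15 and Fgf5 higher.

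Of 9 further receptor and co-receptor genes 0 passed on day 4 by limma (0 at an unadjusted p under 0.05), the widest changes being those of Fgfrl1 (0.39 ± 0.18) and the glypican gene Gpc4 (0.37 ± 0.24), both of which moved by over 1.5 times when either day 4 array was left out. Of 14 signal transducers 1 rose and 1 fell, with a median of -0.11. Sos2, a RAS exchange factor gene, had 5.19 and 5.22 on day 4, and 3.20 and 3.74 in shControl (limma adjusted p = 0.009), and its mean in shControl was also under that quartile. Gab1, an adaptor gene, had 10.96 and 10.08 on day 4, and 11.33 and 11.42 in shControl (limma adjusted p = 0.0427), and 11 of its 18 alternative settings did not call it. Its change of -0.86 ± 0.24 was -1.29 without day 4 replicate 1 and -0.42 without day 4 replicate 2.

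Of 13 further feedback inhibitors 4 rose and 0 fell, with a median of 0.39. Errfi1, an inhibitor of EGF receptor family kinases, had 8.81 and 8.86 on day 4, and 7.43 and 7.83 in shControl, a change of 1.21 ± 0.17 (limma adjusted p = 0.00149), or 0.73 averaged over its probe sets. Dusp9, a phosphatase of ERK, had 9.50 and 9.09 on day 4, and 7.99 and 8.28 in shControl, a change of 1.16 ± 0.17 (limma adjusted p = 0.00189). Spry1, the third Sprouty gene measured, had 8.04 and 7.75 on day 4, and 7.00 and 7.04 in shControl, a change of 0.88 ± 0.15 (limma adjusted p = 0.00506). Dusp2 had 5.18 and 6.04 on day 4, and 4.85 and 4.03 in shControl (limma adjusted p = 0.0391; not called in 8 of 18 alternatives). Its change of 1.17 ± 0.32 was 0.76 without shControl replicate 2 and 0.74 without day 4 replicate 2. Among the Sprouty genes, Spry1 was thus higher, Spry4 lower and Spry2 not called.

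Of 21 further genes in the list of ERK targets 5 rose and 4 fell. The list also holds transcription factor genes such as Elk3, Srf and Klf2, so its counts are no measure of ERK activity, which was not measured. The AP-1 gene Jun had 7.79 and 6.89 on day 4, and 3.70 and 4.15 in shControl, a change of 3.42 ± 0.27 (limma adjusted p = 6.64e-05), and Ier5 rose by 2.34 ± 0.31 (limma adjusted p = 0.00112), or 1.02 averaged over its probe sets. Klf6 had 1.72 ± 0.35, Srf 0.67 ± 0.18 and Fosl1 0.57 ± 0.15. Srf and Fosl1 were not called when their probe sets were averaged (0.37 and 0.26), and Fosl1 was dim in shControl. Klf6 had 1.06 without day 4 replicate 1, and Srf 0.44 without day 4 replicate 2. Klf2, a naive pluripotency factor, had 10.05 and 8.48 on day 4, and 11.23 and 11.66 in shControl, a change of -2.18 ± 0.41 (limma adjusted p = 0.0068), or -1.40 without day 4 replicate 2. The ETS factor gene Elk3 had -1.80 ± 0.27, Ier2 -1.10 ± 0.17 and the AP-1 gene Fos -0.80 ± 0.18. Without shControl replicate 2 the adjusted p of Klf2, Klf6, Srf, Fosl1 and Fos lay between 0.0605 and 0.137.

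**Figure D3:**
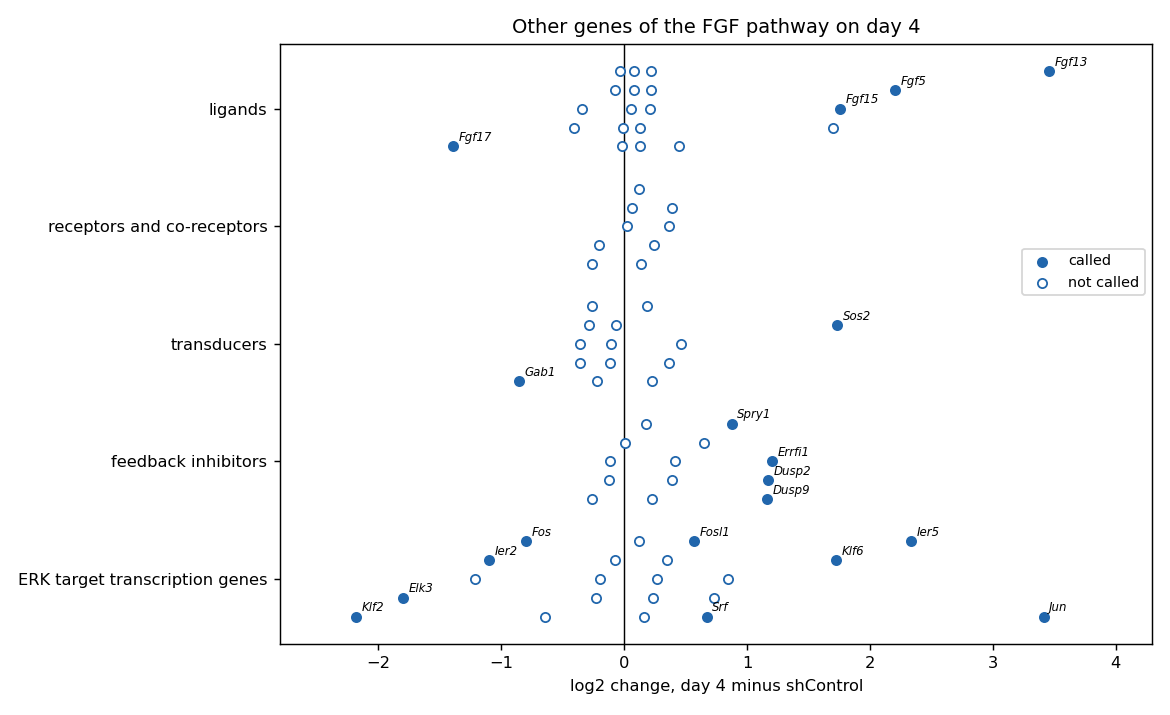
Log2 change on day 4 against shControl of 77 further genes of the FGF pathway, by list; filled points passed a limma adjusted p under 0.05 and are named, open points did not, and vertical offsets within a list carry no value. The 4 feedback inhibitors that passed lie between 0.88 and 1.21, and the genes in the list of ERK targets lie on both sides of 0.

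With the hairpins 0 of these 77 genes passed in any of the 4 comparisons by limma; at an unadjusted p under 0.05 it was 12 with shRNA1 (9.82% of all genes), 7 with shRNA2 (5.1% of all genes), 13 for the mean of both (8.42% of all genes) and 7 between the hairpins (5.15% of all genes). The 2 widest changes of each list for the mean of both hairpins were those of Fgf17 (-0.55 ± 0.16) and Fgf22 (0.52 ± 0.17), of the syndecan genes Sdc4 (1.33 ± 0.20) and Sdc1 (0.45 ± 0.24), of Frs3 (0.40 ± 0.12) and Sos2 (0.34 ± 0.30), of Dusp1 (0.49 ± 0.32) and Dusp9 (-0.37 ± 0.15), and of Ier3 (0.99 ± 0.39) and Phlda1 (0.63 ± 0.49). Sdc4, a heparan sulfate proteoglycan of the cell surface, had 10.28 and 10.03 with shRNA1, 10.03 and 9.83 with shRNA2, and 8.73 and 8.70 in shControl, with no overlap. The change of Fgf22 was 0.77 without shControl replicate 1, 0.27 without shControl replicate 2, and 0.28 averaged over its probe sets. Others also moved by over 1.5 times when 1 array was left out: Sos2 to 0.07 without shControl replicate 1, Dusp9 to -0.22 and Sdc1 to 0.29 without shControl replicate 2, Ier3 to 0.64 without shRNA1 replicate 2, and Dusp1 to 0.30 without shControl replicate 1 or shRNA2 replicate 2.

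The genes whose pattern over the 8 arrays lay nearest to that of Fgf18 were Dmrt1, Slc25a44, Tubb3, Nup210 and Slc30a1, with provisional gene symbols left aside. After subtraction of each gene's own mean, their root mean square differences from Fgf18 were 0.47, 0.49, 0.56, 0.56 and 0.56 on the log2 scale, with a median of 0.87 over the other 12392 genes. Dmrt1, a transcription factor gene of the germ line, had 7.55 and 7.69 with shRNA1, 8.25 and 8.24 with shRNA2, 8.01 and 8.12 on day 4, and 8.89 and 8.85 in shControl. Like Fgf18 it was highest in shControl and lowest with shRNA1. Of the other members Spry4 was nearest, at 0.77 and rank 1041, and Fgfr1 farthest, at 1.07. The values were not scaled, so the difference also depends on how widely each gene varies, and a rank alone does not show a shared pattern.

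**Figure D4:**
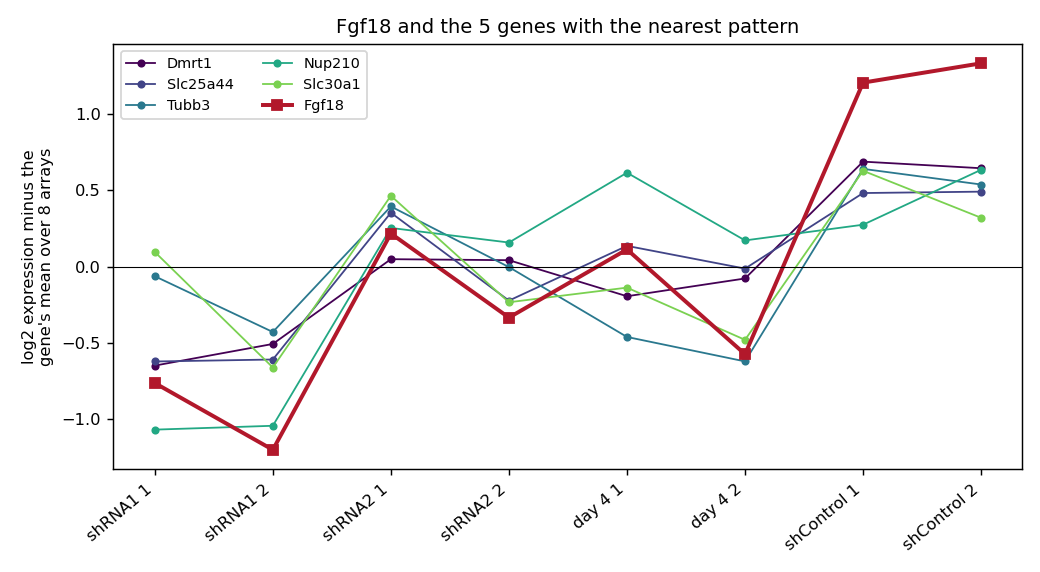
Log2 expression minus the gene's mean over the 8 arrays, for Fgf18 (thick line) and the 5 genes with the smallest root mean square difference from it; points are arrays and lines only join the points of a gene. Fgf18 spans a wider range than the 5 genes, and on both shControl arrays all 6 genes lie above their own means.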

How the data were processed

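Total RNA from 8 samples was measured on Affymetrix Mouse 430A 2.0 arrays. Each probe set has a deposited log2 value per array, and the submitters' processing notes name RMA, a summary of the probes of each set. The RMA version is not given in the labels. The platform annotation gave 20380 probe sets 1 gene symbol, 691 several and 1555 none, with 64 array controls left out; 20351 symbols were matched by gene identifier to a RefSeq table (GRCm38.p6).

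For each gene the probe set with the highest mean was kept. Group means were fitted to all 8 arrays with limma 3.58.1 in R 4.3.3 (lmFit, eBayes; 4 residual degrees of freedom) and p-values were adjusted over all genes (Benjamini-Hochberg). The fit was tested on simulated data. Levels of different probe sets were not compared. The number of arrays limits the precision.

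The members and lists were chosen with earlier results of these data known. Named were all members, the called list genes with the largest changes, the 2 widest changes of each list, and the 5 genes nearest to Fgf18; the remaining called list genes were named after their values were seen. Alternatives were another probe set rule, every probe set tested, a filter on dim genes, trend and robust eBayes, the compared groups alone, repeated quantile normalization, centring, the replicate number as a block, array weights, other controls for day 4, and leaving out each array.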

Additional observations from a re-analysis of the deposited data

Results flagged for a closer look

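The Dusp6 arrays of the hairpins lay on opposite sides of those of shControl. Both shRNA1 arrays (9.56 and 9.57) lay below, and both shRNA2 arrays (9.99 and 9.99) above, the shControl arrays (9.86 and 9.86), a difference of 0.42 on the log2 scale between shRNA2 and shRNA1. Against shControl the changes were -0.29 ± 0.14 with shRNA1 and 0.13 ± 0.14 with shRNA2, the latter smaller than its SE. Arrays did not overlap between the hairpins for 43.6% of all genes. The fit over all genes did not call the difference between the hairpins (limma adjusted p = 0.644), and the opposite directions were not tested. The gene was chosen with the hairpin comparisons known, so the values are a description.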

How the results depend on the processing

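With the replicate number as a block, the members called on day 4 stayed at 9. The pathway genes called there were 22 in place of 19, and 18.6% of all genes passed, against 16.4% without the block. The counts of members here include Fgf18 where it passed, although its day 4 value is not read as a test. With the block 1 pathway gene, Sdc4, was called for shRNA1 (0.395% of all genes) and for the mean of both hairpins (0.178% of all genes). The differences between replicate 2 and replicate 1 correlated across genes with r of 0.23 to 0.50 among the 3 undifferentiated groups and -0.08 to 0.07 between these and day 4, so the numbers may mark something shared in the undifferentiated groups, which the labels do not give. Against all 6 undifferentiated arrays, 29 pathway genes were called on day 4 in place of 19. Of all genes, 22.8% were called in that comparison in place of 16.4%. Leaving out single arrays gave 4 to 8 members and 12 to 24 pathway genes, the lowest counts without shControl replicate 2. Over all genes the 2033 calls on day 4 were 1145 with the compared groups alone, 1191 with array weights (6 members under either) and 1102 without shControl replicate 2. For the mean of both hairpins the count of members, 1 (Fgf18, selected on these values), was 0 with the mean of probe sets, every probe set tested, repeated quantile normalization, centring and array weights, and 0 to 1 without single arrays. The pathway count, 0, was 1 (Sdc4) with trend and robust eBayes (0.0968% of all genes) and the compared groups alone (0.436%). For shRNA1 it was 1 (Sdc4) with those (0.387% and 0.912% of all genes), with the mean of probe sets (0.339%) and with array weights (0.315%). For shRNA2 the compared groups alone called 1 member, Fgf18, and 1 pathway gene, Sdc4, where 0.323% of all genes passed. Between the hairpins array weights called 1 pathway gene, Fgf13, where 1.42% of all genes passed. When single arrays were left out, the call of Sdc4 was present in some fits and absent in others, as was that of Fgf18 with shRNA1. The change of Spry2 on day 4, -0.05, was 0.0027 after repeated quantile normalization, 0.015 after centring, -0.21 averaged over its probe sets, and -0.16 to 0.065 without single arrays (0.065 without shControl replicate 2, 0.064 without day 4 replicate 2). The change of Fgf18 stayed below 0 in the hairpin alternatives run, between -2.47 and -2.03 with shRNA1 and between -1.60 and -1.05 with shRNA2. The causes were not tested. With 2 arrays a group, small differences were not detectable, and no measure of background is given for dim probe sets.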

Other observations

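Partners differed by more on day 4 than in other groups for some pathway genes. Fgf8 had 3.61 and 6.54 on the day 4 arrays, against 3.70 and 3.04 in shControl, and Phlda1 had 8.55 and 6.23, against 6.47 and 6.62. Over all genes the SD of the difference between partners was 0.20 for shRNA1, 0.22 for shRNA2, 0.39 on day 4 and 0.32 for shControl.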
